A study of Mus musculus with 6 samples.

Results

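The RNA of 8 complement genes was followed across immortalized murine embryonic fibroblasts (MEF) of 3 kinds, WT (wild type) and the knockouts TIA1 KO and TIAR KO. The genes were C3, C1s (now C1s1), Gm5077 (now C1s2), C1ra, C2, C4b, Cfb and Serping1. They were chosen by symbol, with their log2 values in the authors' normalized table in view, as a set in which C1s and C1s2 lay below WT in TIA1 KO MEF and above WT in TIAR KO MEF. On the array, 12 of 55681 probes, and 8 of 34797 distinct names in the gene column, were theirs. Because both knockout comparisons were used in choosing the genes, the values of the 8 genes are given as a description and without p-values.

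MEF are fibroblasts cultured from mouse embryos. TIA1 and TIAR are related RNA-binding proteins of the nucleus and cytoplasm, and TIAR is encoded by Tial1. The labels gave the strain as W4 for the WT cells, BALB/c for the TIA1 KO cells and C57BL/6 for the TIAR KO cells, and named no other treatment or allele. Each group had 2 arrays of independent samples, all 6 on 1 slide. An effect of genotype cannot be told apart from an effect of strain or of the cell line, nor, for TIA1 KO, from slide row, since only its arrays lay in their row. The sources used here do not say whether a line is 1 clone. In bulk RNA, fewer cells of a type and less RNA per cell cannot be told apart.

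Complement is a cascade of plasma proteins that marks and lyses foreign or damaged cells. In its classical pathway, C1q binds a target and the paired serine proteases C1r and C1s then cut C4 and C2, whose fragments form the convertase that cleaves C3. Factor B forms the C3 convertase of the alternative pathway, and C1 inhibitor, the product of Serping1, inactivates C1r and C1s. The liver makes most circulating complement, and fibroblasts are a known local source of C1r, C1s, C1 inhibitor and C3, whose transcription responds to interferon-gamma and to IL-6 and IL-1.

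Mice have tandem copies of the C1r and C1s genes on chromosome 6. The probes of C1s and C1s2 are shown because the comparison of these copies rests on their being read by different sequences. Each line gives 30 bases of a 60-base probe, 5′ to 3′, as the files list it.
C1s: aaagagTCTGCATggaggcagggttgatca
C1s2, brighter probe: cagcatggaacTCTGCATctctaacaagat
C1s2, dimmer probe: tgtgaTTATTCAtcccggctggaaggaaga
Capitals mark the longest run that the probe shares with the C1s probe, or, for the C1s probe, with the brighter C1s2 probe, which was 7 bases in either pair. The probes were compared with each other only, and not with the transcript of the other copy. Whether a probe also reads the other copy was therefore not tested. The C1s probe lies at chr6:124480775-124480834, the brighter C1s2 probe at chr6:124574742-124574801 and the dimmer one at chr6:124575671-124575730, all on the minus strand of mm9, the build of the files.

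The TIA1 KO arrays, replicate 1 above all, stood apart in background and in raw signal. Before normalization, the median signal of the spots was 152 and 140 for WT, 458 and 218 for TIA1 KO, and 136 and 119 for TIAR KO. Negative control spots had a median intensity of 112 and 103 for WT, 196 and 119 for TIA1 KO, and 96.7 and 88.6 for TIAR KO. By the scanner software's rating, the share of probes well above background was 42.3% and 47.2% for WT, 28.8% and 35.9% for TIA1 KO, and 44.5% and 46.7% for TIAR KO. TIA1 KO replicate 1 thus had the fewest probes above background. No spot was saturated.

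The knocked-out genes were read first. In log2 of normalized intensity, the dimmer Tial1 probe read 11.71 and 11.09 in WT and 10.00 and 9.65 in TIAR KO MEF, so that the groups did not overlap. This was a log2 fold change of −1.58 ± 0.26 (standard error; limma adjusted p = 0.0254), which no longer passed without WT replicate 1 (−1.27), TIAR KO replicate 1 (−1.76) or TIAR KO replicate 2 (−1.40). The brightest Tial1 probe read 13.22 on WT replicate 2, where its spot on WT replicate 1 was an outlier and left out, and 9.57 and 11.60 in TIAR KO MEF, a change of −2.63 ± 0.87 on 3 arrays (limma adjusted p = 0.200). The brightest Tia1 probe read 10.72 and 8.54 in WT and 7.87 and 8.44 in TIA1 KO MEF, a log2 fold change of −1.47 ± 0.79 that did not pass the test (limma adjusted p = 0.288). On this probe the WT arrays differed from each other by more than the lower of them differed from the TIA1 KO arrays. Another Tia1 probe read 9.56 and 9.90 in WT and 7.57 and 8.65 in TIA1 KO MEF without overlap (−1.62 ± 0.42, limma adjusted p = 0.116). The third, not well above background in WT, read 7.44 and 7.25 in WT and 7.88 and 8.54 in TIA1 KO MEF (0.87 ± 0.28, limma adjusted p = 0.149). Where on the transcripts the deletions lie is not given in the sources used here, so the position of these probes relative to them is unknown.

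The fibroblast label was then set against 11 fibroblast markers. Col1a1, Col1a2, Col3a1, Fn1, Vim, Pdgfrb and S100a4, which code for collagens, fibronectin, a filament protein, a growth factor receptor and a calcium-binding protein, were well above background on all 6 arrays. Pdgfra, a receptor that marks fibroblasts, was not well above background on either WT array (6.37 and 6.40) and read 10.05 and 10.23 for TIA1 KO and 11.68 and 11.51 for TIAR KO. Lum, a matrix proteoglycan, was not well above background on any array. Of the 11 markers, 7 rose in TIA1 KO MEF, 8 rose in TIAR KO MEF, and none fell, where 3.54% and 5.76% of all probes passed. The TIA1 KO calls, like all others on the array, were lost when either WT array was left out. Thy1, a surface glycoprotein, read 6.63 and 6.98 in WT, 7.11 and 7.48 in TIA1 KO, and 14.84 and 14.74 in TIAR KO MEF, and rose in TIAR KO MEF only. Dcn, the matrix proteoglycan decorin, read 6.57 and 6.62 in WT, 9.24 and 9.29 in TIA1 KO, and 15.67 and 15.82 in TIAR KO MEF. With Pdgfra, these were the 3 markers that were higher in TIAR KO than in TIA1 KO MEF. Like all calls between the knockouts, these were lost when either TIAR KO array was left out, and with the replicate number as a block. The summed normalized intensity of the list (log2) was 19.03 and 19.11 in WT, 20.33 and 20.30 in TIA1 KO, and 20.41 and 20.44 in TIAR KO MEF, with S100a4 the brightest in WT and Col1a2 in TIA1 KO MEF. These marker levels moved with both knockouts, and their part in the complement values was not tested.

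C3, the protein at which the complement pathways meet, was high in WT MEF and low in both knockouts. All values that follow are log2 of normalized intensity, and array values are given in the order of replicate 1 and replicate 2. Of 2 probes of a gene, the brighter is the one with the higher mean over the 6 arrays. The brighter C3 probe (chr17:57343678-57343737) read 12.62 and 12.72 in WT, 9.45 and 9.17 in TIA1 KO, and 9.68 and 9.66 in TIAR KO MEF. The groups did not overlap, and the gap to WT was many times the difference between arrays of a group. Among all probes measured on the 4 arrays of a comparison, the groups did not overlap for 26% (higher) and 39.2% (lower) in TIA1 KO against WT, 21.9% and 27% in TIAR KO against WT, and 34.9% and 25% in TIAR KO against TIA1 KO MEF, so non-overlap was common with 2 arrays per group. C3 was lower than WT by a log2 fold change of −3.36 ± 0.18 (standard error, n = 2 arrays per group) for TIA1 KO and −3.0 ± 0.14 for TIAR KO, that is 10.3-fold and 8.0-fold lower.

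The dimmer C3 probe (chr17:57343416-57343475) has 10 spots on each array. It read 12.96 and 12.91 in WT, 8.62 and 8.42 in TIA1 KO, and 9.32 and 9.18 in TIAR KO MEF. It gave a larger change than the brighter probe in both comparisons, −4.42 ± 0.16 for TIA1 KO and −3.69 ± 0.15 for TIAR KO. The spots of this probe allowed the measurement error within an array to be seen. Their SD lay between 0.181 and 0.289 on 5 arrays and was 1.15 on TIA1 KO replicate 1, where single spots read from 7.48 to 10.51. On that array neither C3 probe was well above background, whereas both were on the other 5. Between the knockouts, C3 differed by 0.36 ± 0.18 on the brighter and 0.73 ± 0.17 on the dimmer probe, higher in TIAR KO MEF. In the authors' own table the brighter probe differed from WT by −3.70 for TIA1 KO and −2.79 for TIAR KO.

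**Figure D1:**
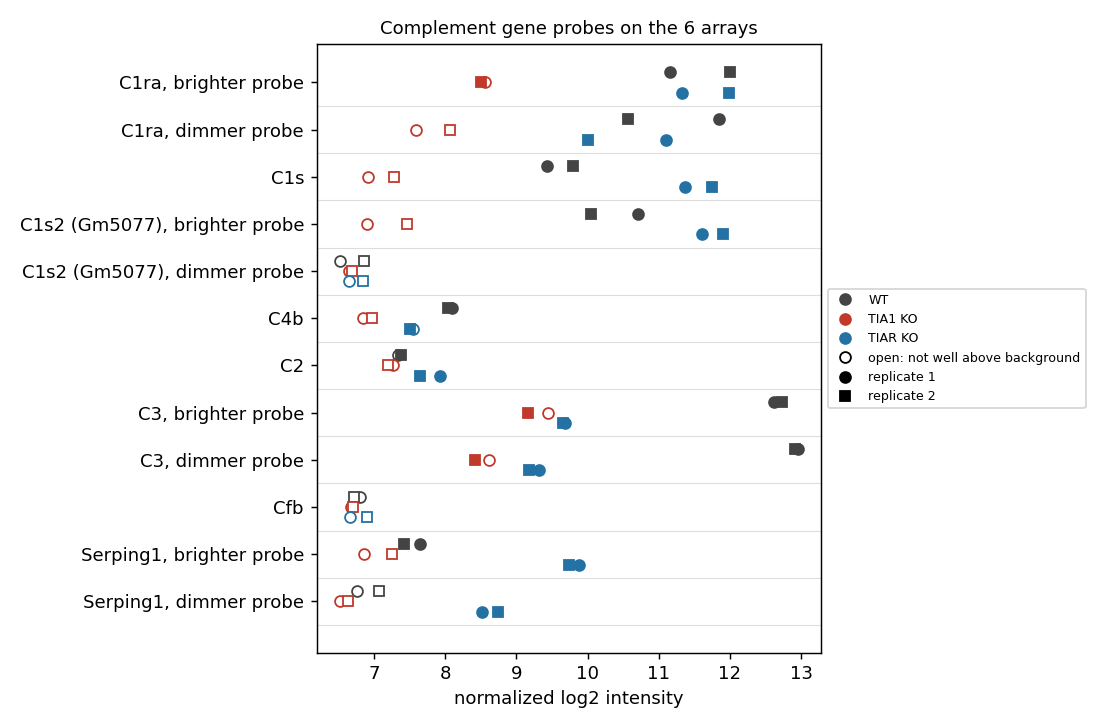
Normalized log2 intensity (horizontal axis) of the 12 complement probes on the 6 arrays, with WT in grey, TIA1 KO in red and TIAR KO in blue. Circles are replicate 1, squares are replicate 2, and open symbols were not well above background. Both C3 probes stand at or above 12.62 in WT and at or below 9.68 in the knockouts, while C1s and the brighter C1s2 probe are lowest in TIA1 KO and highest in TIAR KO MEF.

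C1s, the protease that cuts C4 and C2, differed from WT in opposite directions in the 2 knockouts. The C1s probe read 9.44 and 9.79 in WT, 6.91 and 7.29 in TIA1 KO, and 11.37 and 11.75 in TIAR KO MEF. The arrays of the groups fell into separate ranges, and on the TIA1 KO arrays the probe was not well above background. The log2 fold change was −2.51 ± 0.23 in TIA1 KO, at least 3.88-fold lower once each TIA1 KO array was set no lower than the dimmest value rated well above background on it. This value was 8.03 on TIA1 KO replicate 1 and 5.78 on replicate 2, so that replicate 2 kept its own readings, and the bounds given against TIA1 KO MEF rest on raising replicate 1 alone. In TIAR KO MEF it was 1.95 ± 0.21, or 3.86-fold higher. TIAR KO exceeded TIA1 KO MEF by 4.46 ± 0.24, at least 15-fold.

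C1s2, the tandem copy of C1s, had the same order of groups on its brighter probe. It read 10.71 and 10.05 in WT, 6.91 and 7.47 in TIA1 KO, and 11.60 and 11.91 in TIAR KO MEF. Again the groups did not overlap and the TIA1 KO arrays were not well above background. The log2 fold change was −3.19 ± 0.33 (at least 6.17-fold lower) for TIA1 KO and 1.38 ± 0.26 (2.60-fold higher) for TIAR KO. The dimmer C1s2 probe read between 6.52 and 6.87 on all 6 arrays and was not well above background on any, so the 2 probes of this gene disagree. The dimmer probe therefore gives no separate measurement of C1s2. Across the 6 arrays the C1s probe and the brighter C1s2 probe had a correlation of 0.976, a description of arrays that form 3 groups. Since reading of a copy by the probe of the other was not tested, these may not be separate measurements.

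C1ra, the protease that activates C1s, was low in TIA1 KO MEF but close to WT in TIAR KO MEF. Its brighter probe (chr6:124472674-124472733) read 11.15 and 12.00 in WT, 8.56 and 8.51 in TIA1 KO, and 11.33 and 11.98 in TIAR KO MEF. The WT and TIAR KO ranges overlapped, with the TIA1 KO arrays below both. This probe was not well above background on TIA1 KO replicate 1. The log2 fold change was −3.04 ± 0.33 for TIA1 KO and 0.08 ± 0.36 for TIAR KO, the latter turning to −0.06 with processed signals and −0.28 with a common array median. The dimmer C1ra probe (chr6:124473052-124473111) read 11.85 and 10.57 in WT, 7.59 and 8.07 in TIA1 KO, and 11.11 and 10.01 in TIAR KO MEF. It changed by −3.38 ± 0.49 (at least 8.95-fold lower) and −0.66 ± 0.54. On this probe replicate 1 was the higher array of WT and of TIAR KO, and on the brighter probe it was the lower one, so the probes disagree on the order of replicates, but on both the TIA1 KO arrays were lowest.

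**Figure D2:**
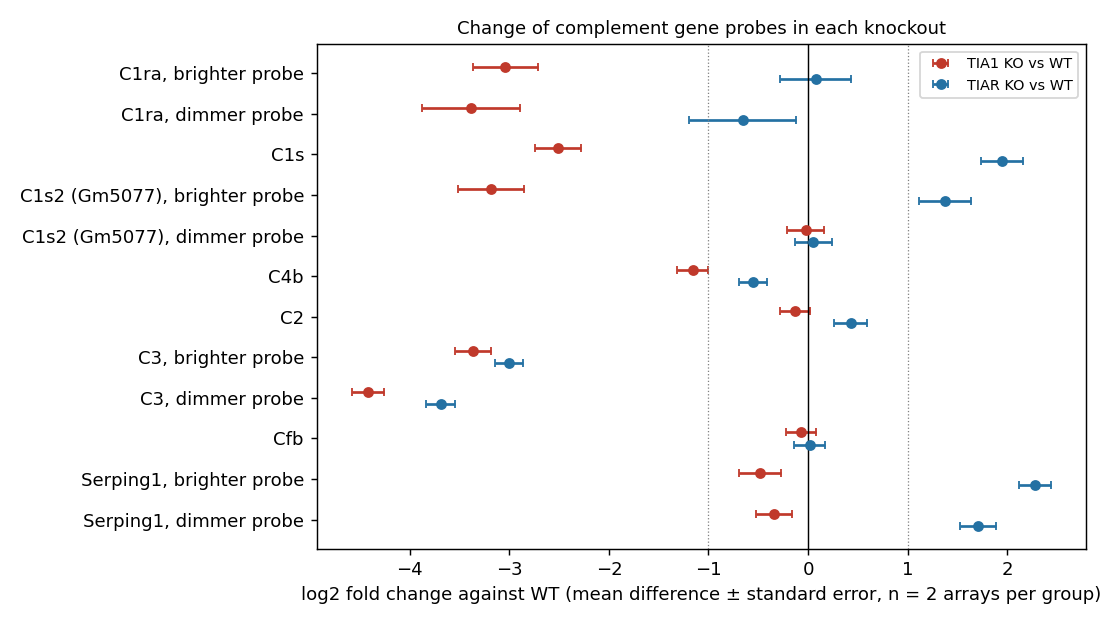
Log2 fold change against WT (horizontal axis, mean difference with its standard error, 2 arrays per group) of the 12 probes in TIA1 KO (red) and TIAR KO (blue) MEF; dotted lines mark a fold of 2. C1s lies at −2.51 and 1.95, the brighter C1s2 probe at −3.19 and 1.38, and the brighter C3 probe at −3.36 and −3.0.

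The substrates of C1s and the alternative-pathway protease were dim. C4b, the mouse C4 gene whose product binds to target surfaces, read 8.10 and 8.05 in WT, 6.85 and 6.97 in TIA1 KO, and 7.54 and 7.50 in TIAR KO MEF (chr17:34865328-34865387). Its groups did not overlap, and the log2 fold change was −1.16 ± 0.15 (at least 1.49-fold lower) for TIA1 KO and −0.55 ± 0.14 for TIAR KO. C4b was not well above background on either TIA1 KO array or on TIAR KO replicate 1. C2, which pairs with C4 in the C3 convertase, read 7.34 and 7.38 in WT, 7.27 and 7.20 in TIA1 KO, and 7.93 and 7.65 in TIAR KO MEF (chr17:34999575-34999634), and was well above background on 3 of the 6 arrays. The changes of C2 were −0.13 ± 0.15 and 0.43 ± 0.16. Cfb, factor B, read between 6.67 and 6.90 and was not well above background on any array, so no level of Cfb was measured here. When the processed signals of the scanner software were used instead, C2, Cfb, the dimmer C1s2 probe and both Serping1 probes turned from below WT to above WT in TIA1 KO MEF, in a setting that moved the median of all probes to 1.98.

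Serping1, whose product C1 inhibitor blocks C1r and C1s, was highest in TIAR KO MEF. The brighter Serping1 probe (chr2:84605663-84605722) read 7.65 and 7.42 in WT, 6.86 and 7.25 in TIA1 KO, and 9.88 and 9.74 in TIAR KO MEF. Both TIAR KO arrays lay above all 4 others, and the TIA1 KO arrays were not well above background. The log2 fold change was 2.28 ± 0.16 (4.84-fold higher) in TIAR KO and −0.48 ± 0.21 in TIA1 KO MEF. The dimmer Serping1 probe, which maps in parts over chr2:84605968-84607474, read 6.77 and 7.07 in WT, 6.53 and 6.63 in TIA1 KO, and 8.52 and 8.74 in TIAR KO MEF, and was not well above background in WT and TIA1 KO MEF. It was at least 2.83-fold higher in TIAR KO than in WT MEF. Between the knockouts, the brighter probe was at least 4.51-fold higher in TIAR KO MEF.

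With the thresholds of the methods, an adjusted p under 0.05 and a fold above 2, 6 of the 12 probes were lower in TIA1 KO MEF, where 3.54% of all 55681 probes passed (2.18% higher and 1.36% lower). In TIAR KO MEF 4 were higher and 2 lower, where 5.76% of all probes passed (3.39% higher and 2.37% lower). In the direct comparison 5 were higher in TIAR KO than in TIA1 KO MEF, where 3.35% passed (1.72% higher and 1.63% lower). Nothing is read from these counts, since the same comparisons chose the genes. The median log2 fold change of the 12 probes was −1.84 for TIA1 KO and 0.07 for TIAR KO, beside −0.09 and −0.02 over all probes. Both comparisons share the WT arrays. In TIA1 KO MEF no probe on the whole array passed without WT replicate 1 or without WT replicate 2 (limma), although 7202 and 7415 probes were under 0.05 before adjustment. Over the 12 other settings the TIA1 KO change of C1s ranged from −3.51 to −2.33, and that of the brighter C3 probe from −5.06 to −3.22. For TIAR KO the ranges were 1.71 to 2.14 for C1s, −3.35 to −2.79 for the brighter C3 probe and 1.05 to 1.71 for the brighter C1s2 probe, whose lowest value was that without WT replicate 2.

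The C1r and C1s copies lie next to each other in the order C1rl, C1ra, C1s, C1rb and C1s2, and C1rl and C1rb were not among the 8 genes. C1rb, the tandem copy of C1ra, read 9.33 and 9.48 in WT, 8.16 and 7.54 in TIA1 KO, and 8.90 and 9.25 in TIAR KO MEF (chr6:124525309-124525368). It was below WT by −1.56 ± 0.26 in TIA1 KO (limma adjusted p = 0.0676) and by −0.33 ± 0.18 in TIAR KO MEF (limma adjusted p = 0.414), and neither passed the test. C1rl, a C1r-like protease, read 9.23 and 9.07 in WT, 7.47 and 8.47 in TIA1 KO, and 9.61 and 9.92 in TIAR KO MEF (chr6:124460498-124460557). Its values of −1.18 ± 0.38 (limma adjusted p = 0.149) and 0.61 ± 0.17 (limma adjusted p = 0.119) did not pass either. On the TIA1 KO arrays C1s, C1s2 and C1rb were not well above background. Besides the 8 genes, 19 genes had a probe within 200000 bases of them on chromosome 6, C1rl and C1rb among these. Of the 19, only Tpi1, a glycolytic enzyme, passed in TIA1 KO MEF (−1.13, limma adjusted p = 0.0440). Eno2 had a larger change there (−1.74 ± 0.25) and did not pass (limma adjusted p = 0.0511). In TIA1 KO MEF 10 of the 19 had an unadjusted p under 0.05 (limma), beside 15484 of all 55681 probes. These 10 all lay below WT, C1rl and C1rb among them. Of the 19, 0 passed for TIAR KO with limma, and 7 had an unadjusted p under 0.05, beside 11247 of all probes. Of these 7, all but C1rl lay below WT.

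**Figure D3:**
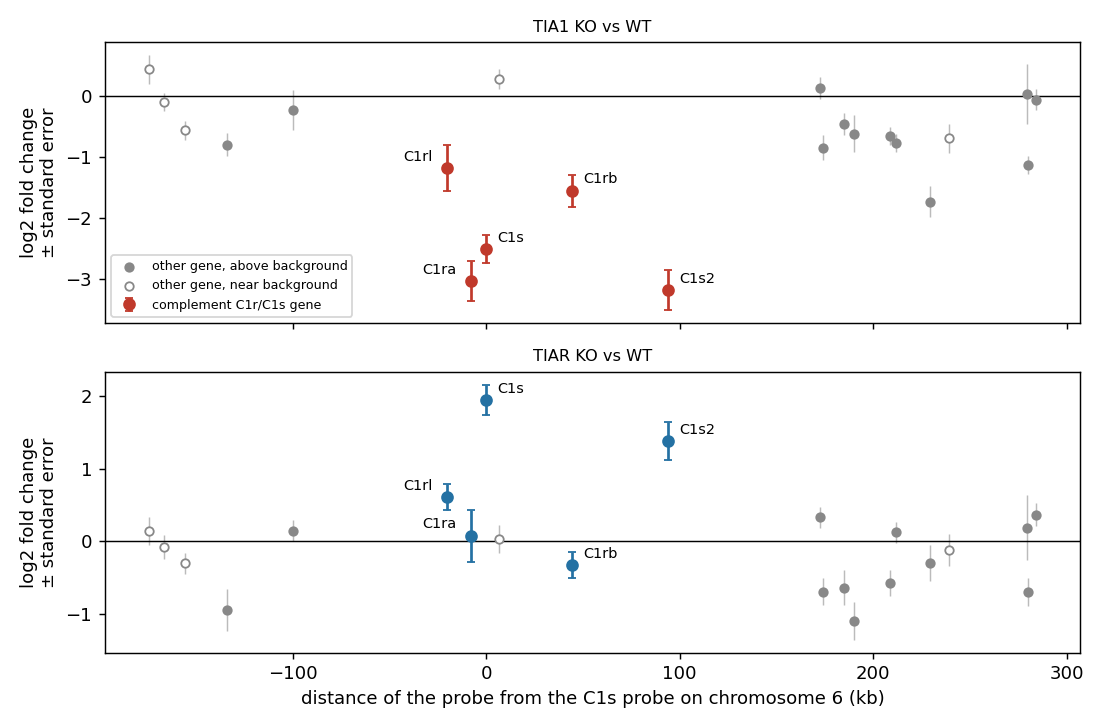
Log2 fold change against WT, with its standard error, of genes around C1s on chromosome 6, by the distance of each probe from the C1s probe in kb. The upper panel is TIA1 KO and the lower TIAR KO MEF. Coloured points are the 5 C1r and C1s genes, grey points are other genes, and open points were not well above background on both arrays of any group. C1ra, C1s and C1s2 are the 3 lowest points in the upper panel, and C1s and C1s2 the 2 highest in the lower.

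The start sites of these genes were compared in RefSeq windows of 250 bases before to 50 after the start (GRCm38.p6), which held C1ra, C1s1, C1rb, C1s2 and C3. C1ra and C1rb shared a block with 139 identical positions of 150 aligned (92.7%). It runs from position −99 to 49 counted from the C1ra start, and from −250 to −102 counted from the C1rb start. The best local alignment of C1s1 with C1s2 covered 39 positions with 27 identical. The shared block holds the motif TTCNNNGAA, the letters of an interferon-gamma-activated element, which is printed here in capitals because these genes are known to respond to such signals.
C1ra, chr6:124512642-124512670, plus strand: caaatgcttcaTTCCCTGAAacattcctc
C1rb, chr6:124570300-124570329, plus strand: caaatgcttcaTTCCCTGAAacatttctcc
The motif begins 32 bases after the C1ra start and 119 bases before the C1rb start. Read on both strands, since it is its own reverse complement, it was found in 8.30% of 32851 RefSeq windows of this length and in none of the C1s1, C1s2 and C3 windows. The interferon-stimulated response element (3.44% of windows) and TTGCNNCAA, letters of a C/EBP element (2.08%), searched on both strands, were found in none of the windows of the 5 genes. A match of letters is not a binding site.

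Outside the 8 genes, 50 of 52 listed complement genes were on the array by symbol. For each gene the brightest probe was read, and 24 of the 50 were well above background on at least 1 array. In TIA1 KO MEF 4 of the 50 rose and 2 fell, where 3.54% of all probes passed. For TIAR KO 6 rose and 2 fell, where 5.76% passed, and TIAR KO against TIA1 KO MEF gave 1 higher and 2 lower, where 3.35% passed. With a common array median the balance turned, to 1 higher and 8 lower in TIA1 KO against WT and to 7 higher and 0 lower in TIAR KO against TIA1 KO MEF. The 50 are the brightest probes of their genes and the percentages cover all probes, dim ones included. The median log2 fold change of the 50 genes was 0.01, 0.07 and 0.05 in the same order, with 26 of them above background on no array.

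Among the recognition proteins, C1qb, a chain of C1q, read 8.08 and 8.10 in WT, 6.84 and 7.31 in TIA1 KO, and 7.71 and 7.61 in TIAR KO MEF. It did not pass the test (−1.01 and −0.43, limma adjusted p = 0.0932 and 0.164), and C1qa and C1qc were not well above background on any array. In the lectin pathway, which sugars on a target start, Fcna, ficolin-A, read 8.25 and 8.35 in WT and between 7.01 and 7.06 on the knockout arrays. Fcna fell in both knockouts, by at least 1.71-fold in TIA1 KO (−1.28 ± 0.15, limma adjusted p = 0.0354) and at least 2.26-fold in TIAR KO MEF (−1.25 ± 0.14, limma adjusted p = 0.00772). Colec11, a collectin, read 8.42 and 8.41 in WT, 6.90 and 6.94 in TIA1 KO, and 7.80 and 8.25 in TIAR KO MEF. Colec11 fell in TIA1 KO (at least 1.91-fold, limma adjusted p = 0.0243) and did not pass in TIAR KO MEF (limma adjusted p = 0.365).

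Masp1, the lectin-pathway counterpart of C1r and C1s, read higher in both knockouts on its brightest probe. It read 7.96 and 7.45 in WT, 9.58 and 9.59 in TIA1 KO, and 9.01 and 9.19 in TIAR KO MEF. Masp1 rose by 1.88 ± 0.23 (limma adjusted p = 0.0368) and 1.39 ± 0.21 (limma adjusted p = 0.0209), but its other probes did not pass. Those probes differed in direction, and neither was well above background on any array. In TIA1 KO and TIAR KO MEF the brighter of them changed by 0.80 and 0.13, and the dimmer by −0.50 and −0.16. The Masp1 call in TIAR KO MEF was lost without WT replicate 2 (1.14), without TIAR KO replicate 1 (1.48) and without TIAR KO replicate 2 (1.30). Cfp, properdin, which steadies the alternative-pathway convertase, read between 10.07 and 11.03 on all arrays and passed in neither knockout. Of the 7 terminal-pathway genes, from Hc (C5) to C9, 0 passed in either knockout with limma (2 for TIA1 KO and 0 for TIAR KO had an unadjusted p under 0.05), and 5 were not well above background on any array.

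Regulators keep complement off host cells. Clu, clusterin, which binds terminal complexes, read 10.03 and 10.13 in WT, 12.76 and 12.66 in TIA1 KO, and 13.99 and 13.72 in TIAR KO MEF. Clu rose by 2.63 ± 0.15 (limma adjusted p = 0.00856) and 3.77 ± 0.16 (limma adjusted p = 0.000438). Its groups did not overlap in any pair. Cd59a, a membrane inhibitor of the lytic complex, read 9.72 and 9.81 in WT, 8.06 and 9.32 in TIA1 KO, and 8.54 and 8.21 in TIAR KO MEF. Cd59a fell in TIAR KO MEF by 1.40 on the log2 scale (limma adjusted p = 0.0105), not without TIAR KO replicate 2 (−1.23), with processed signals or in the joint fit of 3 groups, and did not pass in TIA1 KO MEF (limma adjusted p = 0.215). Cfhr2 and Cr1l, the latter also known as Crry, which protects rodent cells from C3b, were well above background on all 6 arrays. Neither passed on its brightest probe, with changes in TIA1 KO and TIAR KO MEF of 0.21 and 0.96 for Cfhr2 and 0.72 and 0.70 for Cr1l. The dimmer Cfhr2 probe, not well above background in WT, passed in TIAR KO MEF, where it was at least 3.82-fold higher (limma adjusted p = 0.00196).

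**Figure D4:**
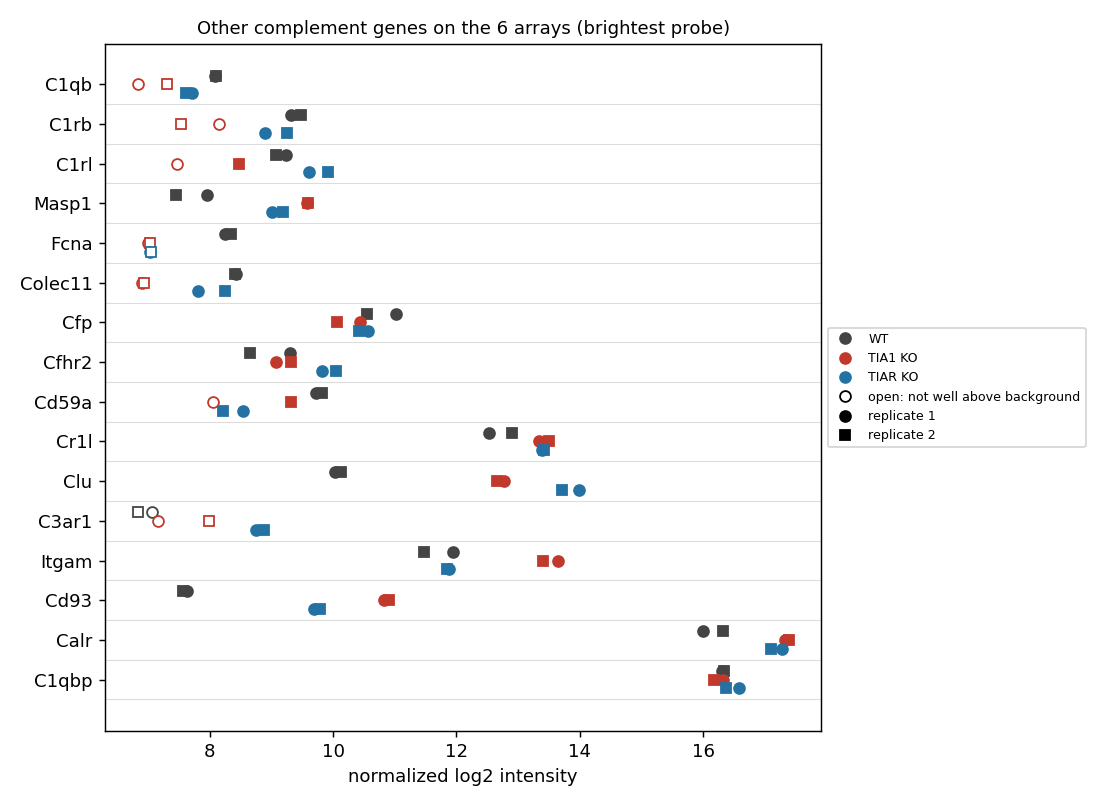
Normalized log2 intensity (horizontal axis) of the brightest probe of 16 complement genes outside the 8, on the 6 arrays; colours, shapes and open symbols are as for the 12 complement probes. C3ar1 is filled in TIAR KO MEF alone (8.74 and 8.88), Clu and Cd93 are higher in both knockouts, and Fcna is filled in WT alone.

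Among receptors, Cd93, first described as a C1q receptor, read 7.64 and 7.57 in WT, 10.83 and 10.90 in TIA1 KO, and 9.69 and 9.79 in TIAR KO MEF. Cd93 rose by 3.26 ± 0.15 (limma adjusted p = 0.00576) and 2.14 ± 0.14 (limma adjusted p = 0.00141). C3ar1, the receptor of the C3a fragment, read 7.07 and 6.83 in WT, 7.16 and 7.99 in TIA1 KO, and 8.74 and 8.88 in TIAR KO MEF. C3ar1 rose in TIAR KO MEF by at least 3.49-fold (1.86 ± 0.16, limma adjusted p = 0.00318), and was not well above background in the other groups. Itgam, the alpha chain of complement receptor 3, read 11.94 and 11.47 in WT, 13.65 and 13.40 in TIA1 KO, and 11.89 and 11.85 in TIAR KO MEF. Itgam rose in TIA1 KO MEF by 1.82 ± 0.24 (limma adjusted p = 0.0415), also lost without TIA1 KO replicate 1 (1.69), while its 2 dimmer probes lay below WT there (−0.53 and −0.78) and did not pass. Calr and C1qbp, chaperone-type proteins that bind C1q, were bright on all arrays. Calr changed by 1.20 in TIA1 KO MEF without passing (limma adjusted p = 0.0576) and rose in TIAR KO MEF (1.03, limma adjusted p = 0.0310), a call lost without WT replicate 1 (0.86), without TIAR KO replicate 1 (0.94) and without TIAR KO replicate 2 (1.12), and C1qbp passed in neither knockout.

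These calls in TIA1 KO MEF share the limit given above. Without WT replicate 1 the changes were −1.33 for Fcna, 2.13 for Masp1, −1.49 for Colec11, 2.59 for Clu, 2.06 for Itgam and 3.30 for Cd93, and none passed. Without WT replicate 2 they were −1.23, 1.63, −1.5, 2.68, 1.59 and 3.23 for the same genes, and none passed. Scaling the arrays to a common median, which moved the median of all probes to −0.67, gave 1.12 for Clu, 2.31 for Cd93 and 0.25 for Itgam. The direction of all 6 was kept there. In TIAR KO MEF the Clu, Cd93, C3ar1 and Fcna calls held under all 12 settings.

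Signals that are known to raise complement transcription were read from a list of 18 genes. In TIAR KO MEF, where 3.39% of all probes were called higher and 2.37% lower, 5 rose, namely Il6 and the IL-1 receptor Il1r1, the transcription factors Stat3, Irf1 and Cebpd, and 1 fell, the interferon factor Irf7. Il6 read 7.47 and 7.61 in WT, 6.84 and 7.10 in TIA1 KO, and 9.25 and 9.11 in TIAR KO MEF, a rise of 1.64 ± 0.15 in TIAR KO MEF (limma adjusted p = 0.00381). Irf7 fell in both knockouts, by at least 2.36-fold in TIA1 KO (limma adjusted p = 0.0370) and by a measured log2 change of −1.58 in TIAR KO MEF (limma adjusted p = 0.00381), and was not well above background on any knockout array. It was the only gene of the list that passed in TIA1 KO MEF. Ifng, Ifnb1, Il1a, Il1b and Tnf were not well above background on any array. Of these calls, Il6 and Irf7 in TIAR KO MEF passed under all 12 settings. The other 4 rises were lost when arrays were left out. Il1r1 was lost without TIAR KO replicate 1 (2.19) or replicate 2 (2.05), and Cebpd without WT replicate 2 (1.48) or TIAR KO replicate 1 (1.33). Stat3 was lost without WT replicate 2 (1.01), TIAR KO replicate 1 (1.09) or replicate 2 (1.14), and Irf1 without WT replicate 1 (1.06), TIAR KO replicate 1 (1.08) or replicate 2 (1.11).

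Markers of other cells that make complement were read in the same way. Of 7 hepatocyte markers, among them Alb, 0 were well above background on any array. Of 10 macrophage markers, 7 were well above background on at least 1 array, among them Cd68, a lysosomal protein, which read 10.89 and 10.15 in WT, 10.18 and 10.17 in TIA1 KO, and 11.66 and 11.64 in TIAR KO MEF. Csf1r, the receptor that macrophages need to grow, read 8.92 and 9.03 in WT, 9.66 and 8.81 in TIA1 KO, and 9.20 and 9.23 in TIAR KO MEF, and passed in neither knockout. Ptprc, Emr1 and Lyz2 were not well above background on any array. Itgam and Tyrobp, a signalling adaptor, rose in TIA1 KO MEF, where 2.18% of all probes were called higher. Tyrobp was well above background on TIA1 KO replicate 2 alone. Cd14, a receptor for bacterial lipid, and Aif1 fell in TIAR KO MEF, where 2.37% of all probes were called lower. Aif1 read 8.46 and 8.59 in WT, 6.18 and 6.90 in TIA1 KO, and 7.12 and 7.05 in TIAR KO MEF. Its change of −1.98 in TIA1 KO MEF did not pass (limma adjusted p = 0.0518). The summed intensity of the macrophage list (log2) was 13.53 and 13.45 in WT, 14.42 and 14.25 in TIA1 KO, and 13.35 and 13.34 in TIAR KO MEF, with Itgam the brightest in TIA1 KO and Cd14 in WT. Of 6 epithelial markers, Krt8 and Krt19 rose in TIA1 KO and Cdh1, Krt8 and Krt18 in TIAR KO MEF. Over all probes, 2.18% and 3.39% were called higher in these comparisons. Krt19 was the brightest of the 6 on all arrays. The epithelial sum was 12.37 and 12.46 in WT, 13.38 and 13.46 in TIA1 KO, and 13.07 and 12.95 in TIAR KO MEF. Of 5 endothelial markers, 0 passed in either knockout with limma (1 in each had an unadjusted p under 0.05), and Cdh5 and Emcn were not well above background on any array. The part of these cell markers in the complement values was not tested.

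The other clusters of the 8 genes were also read for their neighbours. Around C3 and around the C2, Cfb and C4b genes of the major histocompatibility region on chromosome 17, 53 genes had a probe within 200000 bases, of which 3 passed for TIA1 KO and 7 for TIAR KO, beside 3.54% and 5.76% of all probes. In TIA1 KO MEF, Tnfsf9, a ligand of the TNF family, rose (1.48, limma adjusted p = 0.0283) and Notch4, a Notch receptor, fell (at least 2.11-fold, limma adjusted p = 0.0432). Hspa1a, a heat shock protein, rose in both (2.14 and 1.85). The other 6 that passed in TIAR KO MEF rose, among them Gpsm3 (3.58) and Ddah2 (3.18). Around Serping1 on chromosome 2, of 17 genes, 0 passed in TIA1 KO MEF with limma (3 had an unadjusted p under 0.05), and only the amino acid transporter Slc43a1 in TIAR KO MEF, at 3.21 (limma adjusted p = 0.00106).

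The genes whose 6 array values ran closest to those of C3, once each was centred on its mean, were H2-Ab1, a class II histocompatibility chain, Tpd52, Lce1f, Lce1h and Gm13308. The distance (Euclidean, log2 scale, over the 25307 probes whose signal stood well above background on both arrays of some group) was 0.359 for H2-Ab1, which read 9.79 and 10.07 in WT, 6.80 and 6.82 in TIA1 KO, and 7.10 and 6.95 in TIAR KO MEF. Those closest to C1s were Enho, Gas5, Vdr, Rasgrp3 and C1s2, at distances from 0.837 to 1.03. Enho read 9.56 and 9.75 in WT, 7.02 and 7.66 in TIA1 KO, and 11.30 and 11.02 in TIAR KO MEF. Among the 5 closest to C1s2 were Trim59, Tmco4, C1s and Mnda (now Ifi211). That C1s and C1s2 appear in each other's list restates how they were chosen. With 6 arrays in 3 groups, such likeness describes an order of groups and no more.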

How the data were processed

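MEF RNA of the 3 groups was read on mouse arrays of 1 colour. Per the file headers, the deposited intensity values (each spot's mean signal and the median of its local background) came from Agilent Feature Extraction 10.7.3.1, and probes were placed on mm9. The authors also deposited a table of normalized log2 values, made with limma per the labels (version not given in the sources used here). It served as an alternative. The values used here correlated with it at 0.997 to 1.00 array by array. The authors' lists of changed genes were not used.

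Normexp (offset 50) corrected the intensities, and their log2 values were fitted by loess to the mean of the arrays, since no reference is stated for 1 colour, and then quantile normalized. The global normalization that the methods also name was not applied. Outlier and control spots were left out and spots of a probe averaged, without a filter on dim probes. On an array, a probe was well above background if 50% or more of its spots had that rating. Where it was so on neither array of a group, the fold was bounded by raising each array's value to the dimmest log2 value with that rating there, if lower.

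Each comparison was fitted with limma on its own 4 arrays, with Benjamini-Hochberg adjustment over 55681 probes, a threshold of 0.05 and a fold above 2. A gene was read from its brightest probe. Arrays of a number did not deviate together (correlations of 0.08, 0.03 and −0.07), so no pairing was used. The genes named were the members, the knocked-out genes, listed complement genes called or well above background on all arrays, called inducers, leading and defining markers, neighbours within 200000 bases and the 5 nearest profiles. C1qb, C1rb and C1rl were named after their values were seen, as were the listed genes given as near background. Genes counted in a list but not named are not reported here. The members and lists were chosen with earlier results of these data known. Of 27752 probes with a RefSeq accession, 27220 (98.1%) were matched to RefSeq symbols (GRCm38.p6).

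The alternatives were processed signals scaled to the 75th percentile, a normexp offset of 16, no loess, a common array median, the authors' log2 table, a filter on dim probes, a joint fit of 3 groups, a replicate block and leaving out each array, with a group's lone array taken to vary as the other group did. The fit was tested on simulated data. An array had from 16021 to 26295 probes with the rating, and 2 arrays per group limit the precision. Replicates were independent experiments, per the methods, and the p-values measure the spread between them. The methods name no separately derived lines of a genotype, so the p-values cannot be read as the spread between lines. Computations used R 4.3.3, limma 3.58.1, Python 3.11.15, biopython 1.88, pandas 2.3.3 and matplotlib 3.10.9.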

Additional observations from a re-analysis of the deposited data

How the results depend on the processing

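The number of probes called in TIA1 KO MEF against WT (1969) was 0 with processed signals (27765 at an unadjusted p under 0.05, limma), 15801 with a common array median (11.9% higher, against 61.6%), 1293 with the authors' table, 2949 (44.7% higher) with the filter on dim probes, 3986 (47.2% higher) in the joint fit, and 0 to 10735 when 1 array was left out. It was 0 without either WT array (7202 and 7415 unadjusted, limma), 3068 without TIA1 KO replicate 1 and 10735 without replicate 2. The 6 other complement genes called there became 0, 9, 3, 8 and 10 in these settings, and 0 to 15 when 1 array was left out. For TIAR KO against WT MEF the count of 3206 stayed within 1.5 times in all 12 alternatives (34.4% higher with a common median, against 58.8%), and the 8 other complement genes became 5 to 8 when 1 array was left out, 5 without TIAR KO replicate 2. For TIAR KO against TIA1 KO MEF the count of 1866 became 8307 (87.2% higher, against 51.3%) with a common median, 2925 (61.6% higher) with the filter, 3183 in the joint fit, 1509 (8.28% higher) with processed signals, and 0 to 10086 when 1 array was left out. It was 0 without TIAR KO replicate 1 (6318 unadjusted, limma) and without TIAR KO replicate 2 (6402 unadjusted), 3422 without TIA1 KO replicate 1 and 10086 without its replicate 2. The 3 other complement genes became 7, 6, 6 and 0 in these settings and 0 to 10 when 1 array was left out. Of 423 values of the 12 complement probes under an alternative, 326 stayed within the spread between replicates and 97 moved further. Of 348 values of other called genes, 243 stayed past the threshold, 105 did not and 0 reversed. The cause of these shifts was not tested.

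With the replicate number as a block, TIA1 KO against WT MEF gave 671 calls and 2 other complement genes, TIAR KO against WT MEF 3302 and 7, and TIAR KO against TIA1 KO MEF 0 (10675 unadjusted, limma) and 0. The numbers gave no pairing (above), and the block takes 1 more degree of freedom from 4 arrays.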
